A study of Homo sapiens with 6 samples.

Results

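Described here are 10 genes that accompany SPP1 in lipid-loaded tumor macrophages, namely TREM2, TYROBP, GPNMB, LPL, LIPA, FABP4, FABP5, PLIN2, CD9 and PPARG. They were taken by symbol from the deposited gene tables, where all 10 were found among 17513 genes, and all 10 passed the filter on low counts. RNA sequencing of polyadenylated RNA covered 6 libraries in 2 groups of 3. By the series design text, in the shSPP1#2 group macrophages made from the human monocytic leukemia line THP1 had spent 48 h in medium conditioned by KYSE150 cells carrying shSPP1#2, a hairpin against SPP1. In the shNC group the same kind of macrophage had spent 48 h in medium of KYSE150 cells carrying the shNC hairpin. KYSE150 is a human esophageal squamous cell carcinoma line. By that text all 6 libraries come from macrophages that received tumor cell medium, and the hairpin acted in the cells that made the medium. A single SPP1 hairpin is represented, and the labels do not state whether each replicate was its own culture. The p-values and intervals below therefore cover the spread between these libraries, which may be technical. The sample labels name KYSE150 itself as the cell, whereas the series design text names the macrophages.

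Macrophages that take up lipid switch on a shared group of genes, described in fat tissue, arterial plaque and tumors. TREM2 is a surface receptor for lipids and lipoproteins that signals through the adaptor TYROBP, also called DAP12. Lipoprotein lipase (LPL) frees fatty acids outside the cell and lysosomal acid lipase (LIPA) frees fatty acids and cholesterol inside it. The carriers FABP4 and FABP5 bind fatty acids in the cytosol, PLIN2 coats the droplets in which lipid is stored, and the nuclear receptor PPARG responds to fatty acids and switches on several of these genes. GPNMB is a glycoprotein of lysosomes and the cell surface, and CD9 is a tetraspanin that marks lipid-associated macrophages in fat tissue.

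Total estimated counts ran from 20202142 to 20572456 in the shSPP1#2 libraries and from 18113591 to 20626346 in the shNC libraries. Of 16 monocyte and macrophage markers, 12 reached 1 FPKM in every library, while MRC1, C1QA, C1QB and C1QC stayed below it. Their summed level was 2073 to 2161 FPKM in shSPP1#2 medium and 2121 to 2211 FPKM in shNC medium. Of the 12 tested, 4 were higher and 8 lower in shSPP1#2 medium, with a list median log2 fold change of -0.031. For 2 of them, AIF1 and CD163, the groups did not overlap, both lower, beside 11.1% of all tested genes in either direction. LAPTM5 was the most abundant, at 725 to 823 FPKM. Squamous markers summed to 3.99 to 4.88 FPKM in shSPP1#2 medium and 3.86 to 4.27 FPKM in shNC medium, with 1 of 13 present (S100A2) at or above 1 FPKM in every library. Fat cells also make FABP4, LPL and PPARG. The fat cell markers ADIPOQ, LEP, PLIN1, LIPE, PCK1, GPD1 and AQP7 each stayed below 1 FPKM in every library. The other 3 present, ADIPOR2, CFD and CIDEC, reached 1 FPKM in every library. CFD measured 11.9 to 14.9 FPKM in shSPP1#2 medium and 11.1 to 13.8 FPKM in shNC medium. CIDEC measured 4.34 to 5.19 FPKM in shSPP1#2 medium and 4.19 to 6.44 FPKM in shNC medium. The summed levels of the 10 fat cell markers present were 38.7 to 43.0 FPKM in shSPP1#2 medium and 37.6 to 41.2 FPKM in shNC medium, most of it ADIPOR2, an adiponectin receptor, at 20.9 to 23.2 FPKM. Endothelial markers summed to 175 to 187 FPKM in shSPP1#2 medium and 182 to 192 FPKM in shNC medium, mostly PECAM1, which monocytes also make (132 to 142 FPKM), while VWF, CDH5, KDR and TEK lay below 1 FPKM. TIE1, a receptor of endothelial cells, was next at 39.9 to 43.7 FPKM in shSPP1#2 medium and 44.5 to 48.2 FPKM in shNC medium (log2 fold change -0.13, edgeR adjusted p = 0.618), and 6 of the 7 tested endothelial markers were lower, with a list median of -0.134. Fibroblast markers summed to 35.7 to 41.1 FPKM in shSPP1#2 medium and 37.9 to 41.8 FPKM in shNC medium, with COL1A1 highest at 16.3 to 19.1 FPKM. COL1A1 had a log2 fold change of 0.064, and the other 5 tested fibroblast markers were lower (list median -0.124). The collagens COL3A1 and COL1A2 stayed below 1 FPKM, with log2 fold changes of -1.42 (edgeR adjusted p = 0.512) and -0.85 (edgeR adjusted p = 0.691). T and NK cell markers summed to 29.3 to 32.1 FPKM in shSPP1#2 medium and 28.6 to 31.9 FPKM in shNC medium, mostly CD4, which human monocytes also make (22.6 to 25.9 FPKM), and B cell markers to 0.99 to 1.26 FPKM in shSPP1#2 medium and 0.97 to 1.46 FPKM in shNC medium. The part of other cell types in the values below was not tested. On the first principal component of log2 CPM (25.2% of the variance), shNC replicate 2 lay at 22.5 and the other libraries between -10.5 and 1.63. On the second (22.2%), shSPP1#2 replicate 2 lay at -20.3 and shNC replicate 1 at 13.8, with the other libraries between them.

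The 10 genes were well expressed in these macrophages. FABP5 was highest at a mean of 712 FPKM over the 6 libraries, which ranked 80 among the 17513 genes. LPL followed at 296 FPKM, then PLIN2 at 160.5 FPKM and TYROBP at 160.0 FPKM. FABP4 averaged 118 FPKM, LIPA 114 FPKM, CD9 68.8 FPKM, TREM2 42.1 FPKM, GPNMB 20.6 FPKM and PPARG 12.97 FPKM. The ranges of PLIN2 and TYROBP overlapped, as did those of FABP4 and LIPA, and the highest FABP4 library (142.8 FPKM) lay just above the lowest PLIN2 library (142.0 FPKM). The other neighbours in this order did not overlap in range. The least abundant, PPARG, still had 411 to 550 estimated counts per library, and LPL had 17927 to 22625, which gives a counting SD of 0.065 for PPARG and 0.010 for LPL on the log2 scale.

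**Figure D1:**
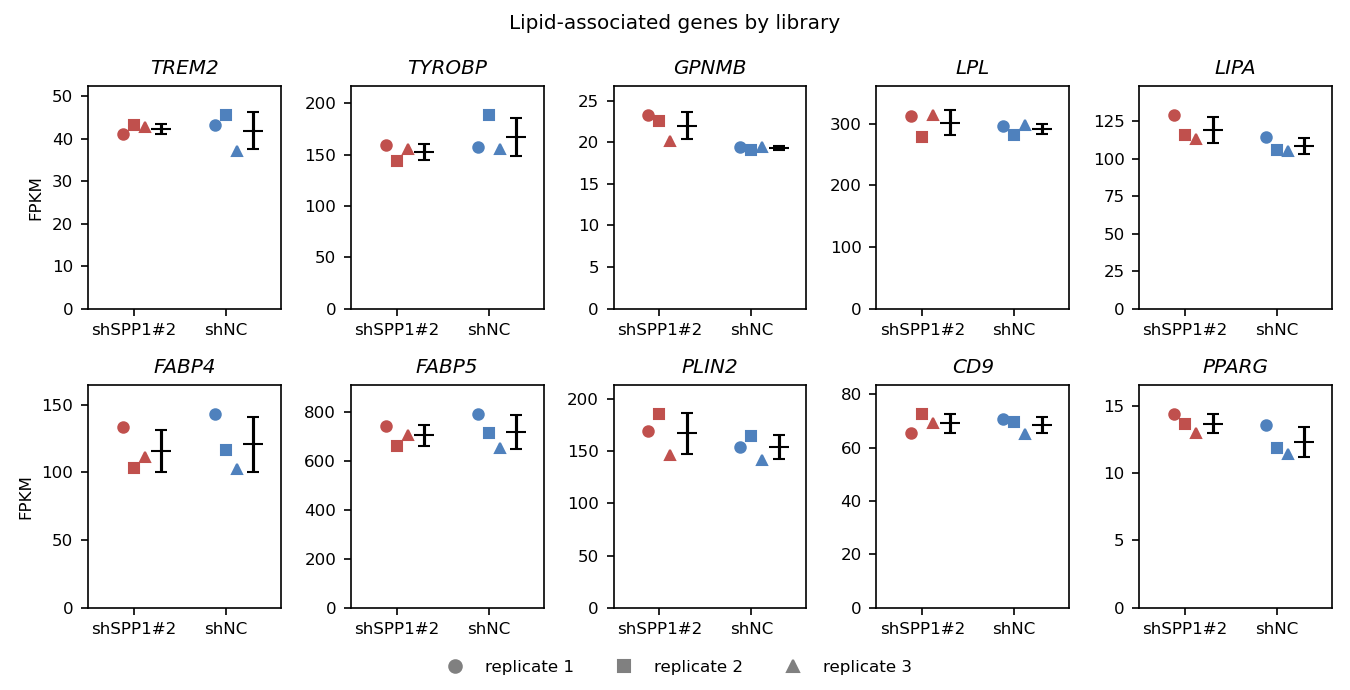
FPKM of each of the 10 genes in the 3 shSPP1#2 libraries (red) and the 3 shNC libraries (blue), with marker shapes for replicate numbers and black bars for the group mean and SD. The groups overlap for every gene except GPNMB, whose shSPP1#2 libraries sit between 20.2 and 23.3 FPKM and whose shNC libraries sit between 19.1 and 19.4 FPKM.

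No member passed the test between the media. The edgeR quasi-likelihood test called 0 of 10 members at an adjusted p below 0.05, where 0% of all 13555 tested genes were called, and the members' adjusted p ran from 0.517 (GPNMB) to 0.993 (CD9). At an unadjusted p below 0.05 the same test gave 2 of 10 members, GPNMB and LIPA, beside 928 genes (6.85%) over all. DESeq2, which adjusted 8 of the 10 and left TREM2 and PPARG without an adjusted p, and limma-voom also called 0 members, while calling 13 genes and 1 gene elsewhere. DESeq2 gave an adjusted p to 4265 genes, against 13555 in edgeR. In 7 members the log2 fold change was positive and in 3 negative, with a median of 0.030, against 49.9% positive and a median of -0.00030 over all tested genes. Across the 10 members the lowest bound of the 95% intervals was 0.832-fold (TYROBP) and the highest 1.23-fold (GPNMB). These intervals were taken gene by gene, not jointly, and cover only the spread between these libraries. In bulk RNA, fewer cells that express a gene and less of its RNA per cell cannot be told apart. SPP1 itself measured 2061, 2014 and 1932 FPKM in shSPP1#2 medium and 2075, 2011 and 1890.4 FPKM in shNC medium.

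**Figure D2:**
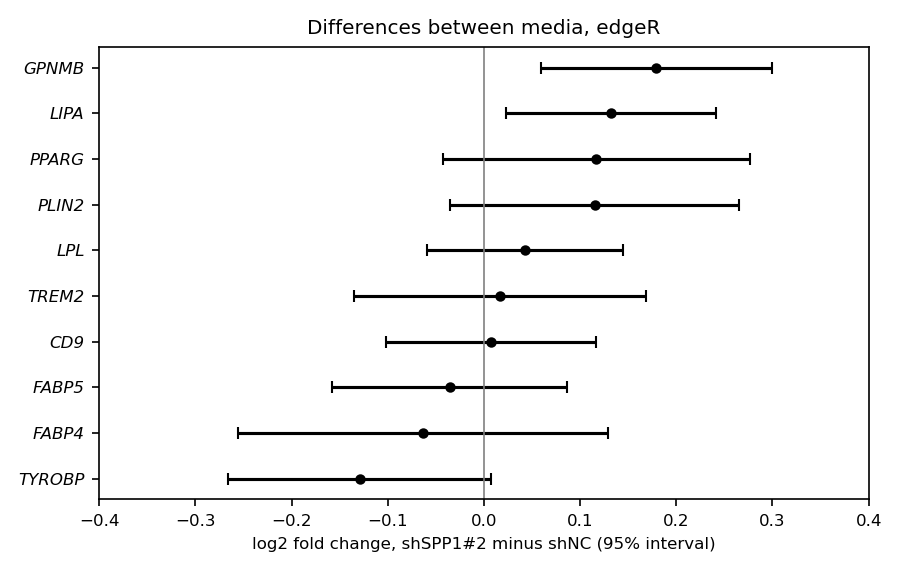
Log2 fold change of each gene, shSPP1#2 minus shNC, with its 95% interval from the edgeR fit. Intervals of GPNMB and LIPA lie above 0, those of the other 8 genes include it, and no interval reaches beyond -0.266 or 0.299.

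TREM2 did not differ detectably between the media. It measured 41.1, 43.3 and 42.7 FPKM in shSPP1#2 replicates 1, 2 and 3, and 43.2, 45.6 and 37.0 FPKM in the shNC replicates. The highest and the lowest of the 6 values were both shNC libraries, so the shSPP1#2 values lay inside the shNC range. Means were 42.4 ± 1.17 FPKM in shSPP1#2 medium and 41.9 ± 4.42 FPKM in shNC medium (SD, n = 3 each). The log2 fold change was 0.017 with a standard error of 0.072 (95% interval -0.14 to 0.17, edgeR adjusted p = 0.984). Leaving out shNC replicate 3 gave -0.076, and leaving out shNC replicate 2 gave 0.093. TREM2 (Entrez 54209) occupies positions 41158506 to 41163186 of chromosome 6, minus strand; gene coordinates here are those of GENCODE v29 (GRCh38).

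TYROBP, the adaptor that carries the TREM2 signal, had the most negative difference of the 10. It measured 159, 144.2 and 155 FPKM in shSPP1#2 replicates 1, 2 and 3, and 157, 189 and 156 FPKM in the shNC replicates. Of these values only shNC replicate 2 stood well apart. Means were 153 ± 7.71 FPKM in shSPP1#2 medium and 167 ± 18.6 FPKM in shNC medium (SD, n = 3 each). The log2 fold change was -0.13 with a standard error of 0.065 (95% interval -0.27 to 0.0070, edgeR adjusted p = 0.746). Without shNC replicate 2, the library that also stood apart on the first principal component, it was -0.029. The gene occupies positions 35904401 to 35908295 of chromosome 19, minus strand. TYROBP exceeded its receptor in every library, by a TYROBP to TREM2 ratio of FPKM of 3.87, 3.33 and 3.64 in shSPP1#2 medium and 3.64, 4.14 and 4.21 in shNC medium. Mean ratios were 3.61 ± 0.273 in shSPP1#2 medium and 3.99 ± 0.31 in shNC medium (two-sided exact permutation p = 0.2, adjusted p = 0.4 over 2 ratios; 3 against 3 cannot go below 0.1).

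GPNMB had the highest log2 fold change of the members and was the single member whose groups did not overlap. It measured 23.3, 22.5 and 20.2 FPKM in shSPP1#2 replicates 1, 2 and 3, and 19.4, 19.1 and 19.4 FPKM in the shNC replicates. Each shSPP1#2 library lay above each shNC library, with replicate 3 closest to them. Of all tested genes, 5.63% were non-overlapping in this direction and 5.5% in the other, 11.1% in all, against 1 and 0 of the 10 members. Means were 21.97 ± 1.62 FPKM in shSPP1#2 medium and 19.3 ± 0.222 FPKM in shNC medium (SD, n = 3 each). Its log2 fold change of 0.18 (standard error 0.057, 95% interval 0.059 to 0.30), or 1.13-fold, did not pass (edgeR adjusted p = 0.517). By p it ranked 147 among the tested genes. Leaving out shSPP1#2 replicate 1 gave 0.138 and leaving out shSPP1#2 replicate 3 gave 0.246, the extremes over the 6 libraries. GPNMB occupies positions 23235967 to 23275108 of chromosome 7, plus strand.

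GPNMB is a known target of MITF, a transcription factor of the MiT family, which binds CACGTG and CACATG motifs, so the bases before its start are shown together with those of 2 other lipid-handling members, LIPA and PLIN2. Each stretch holds the 250 bases before a RefSeq transcript start (GRCh38.p14), read 5′ to 3′ on the gene's strand, with CACGTG and CACATG matches of either strand in capitals (CACATG reads CATGTG on the other strand). GPNMB's stretch is chr7:23246525-23246774 on the plus strand, LIPA's is chr10:89251776-89252025 on the minus strand at 1 of its 3 listed starts, and PLIN2's is chr9:19127493-19127742 on the minus strand. All lie inside the GENCODE v29 spans of their genes, so these RefSeq starts are not the outermost starts of those spans.
GPNMB: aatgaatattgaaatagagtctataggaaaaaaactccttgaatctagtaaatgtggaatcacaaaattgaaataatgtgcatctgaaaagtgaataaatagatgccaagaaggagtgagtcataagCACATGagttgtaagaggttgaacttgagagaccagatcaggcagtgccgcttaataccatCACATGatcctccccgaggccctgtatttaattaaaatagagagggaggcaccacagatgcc
LIPA: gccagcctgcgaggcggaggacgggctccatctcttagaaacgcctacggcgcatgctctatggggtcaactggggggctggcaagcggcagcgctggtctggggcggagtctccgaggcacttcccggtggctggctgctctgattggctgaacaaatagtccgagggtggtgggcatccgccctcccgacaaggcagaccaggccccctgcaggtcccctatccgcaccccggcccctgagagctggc
PLIN2: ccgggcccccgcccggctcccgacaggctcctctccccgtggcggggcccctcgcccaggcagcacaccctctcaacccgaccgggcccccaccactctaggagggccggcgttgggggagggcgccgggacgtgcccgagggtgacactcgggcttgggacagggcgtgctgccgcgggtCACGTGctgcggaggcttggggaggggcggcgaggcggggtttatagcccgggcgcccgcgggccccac
GPNMB held CACATG in 2 places, beginning 123 and 62 bases before the start. PLIN2 held CACGTG beginning 69 bases before its start, and neither motif stands in the LIPA stretch. Among the stretches not shown, CACATG also stood before some listed starts of CD9 and PPARG. Neither motif stood before the listed starts of TREM2 and TYROBP. Of 35116 RefSeq promoter stretches of this length, 9.42% held CACATG and 6.34% held CACGTG. A match of letters is a description and shows no binding. TFEB, an MiT factor of lysosomal genes, measured 12.1 ± 0.735 FPKM in shSPP1#2 medium and 13.3 ± 0.953 FPKM in shNC medium (SD, n = 3 each), with a log2 fold change of -0.14 (95% interval -0.30 to 0.014). MITF itself measured 4.90 ± 0.419 FPKM in shSPP1#2 medium and 5.02 ± 0.160 FPKM in shNC medium (SD, n = 3 each; log2 fold change -0.018), and the related TFE3 had a log2 fold change of -0.043.

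The lipases gave small positive differences. LIPA, which splits cholesteryl esters and triglycerides in lysosomes, measured 129, 115 and 113 FPKM in shSPP1#2 replicates 1, 2 and 3, and 114, 106 and 105 FPKM in the shNC replicates. The groups overlapped by a narrow margin, since shSPP1#2 replicate 3 (113.25 FPKM) lay below shNC replicate 1 (114.48 FPKM). Means were 119 ± 8.55 FPKM in shSPP1#2 medium and 108 ± 5.32 FPKM in shNC medium (SD, n = 3 each). Its log2 fold change was 0.13 with a standard error of 0.052 (95% interval 0.023 to 0.24, edgeR adjusted p = 0.633), and 0.073 without shSPP1#2 replicate 1. LIPA occupies positions 89213569 to 89414557 of chromosome 10, minus strand, a span that reaches across the interferon-induced genes IFIT2, IFIT3, IFIT1B and IFIT1 on the other strand. On that strand an antisense gene of GENCODE v29 shares 135 of the 4910 exonic bases of LIPA (2.75%) and IFIT2 shares 65 (1.32%), where counting without strand could not tell the genes apart.

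LPL, which is secreted and hydrolyses lipoprotein triglycerides, measured 313, 278 and 314 FPKM in shSPP1#2 replicates 1, 2 and 3, and 296, 281 and 297 FPKM in the shNC replicates. The lowest of the 6 values was shSPP1#2 replicate 2, and the other shSPP1#2 libraries were the highest. Means were 301 ± 20.6 FPKM in shSPP1#2 medium and 291 ± 8.62 FPKM in shNC medium (SD, n = 3 each), with a log2 fold change of 0.043 (95% interval -0.059 to 0.14, edgeR adjusted p = 0.916). It reached 0.090 without shSPP1#2 replicate 2. LPL occupies positions 19901717 to 19967259 of chromosome 8, plus strand. The related endothelial lipase LIPG was much lower, at 5.18 to 6.05 FPKM in shSPP1#2 medium and 5.20 to 5.71 FPKM in shNC medium, and LIPE, the hormone-sensitive lipase of fat cells, did not exceed 0.11 FPKM; these genes were chosen after their values were seen.

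The fatty acid carriers FABP4 and FABP5 did not differ detectably between the media but varied together among the libraries. FABP4 measured 133, 103 and 111 FPKM in shSPP1#2 replicates 1, 2 and 3, and 143, 117 and 102 FPKM in the shNC replicates. FABP5 measured 744, 662 and 707 FPKM in shSPP1#2 replicates 1, 2 and 3, and 791, 714 and 653 FPKM in the shNC replicates. For both carriers shNC replicate 1 was highest, shSPP1#2 replicate 1 next and shNC replicate 3 lowest. FABP4 averaged 116 ± 15.7 FPKM in shSPP1#2 medium and 121 ± 20.5 FPKM in shNC medium, and FABP5 averaged 705 ± 41.0 FPKM in shSPP1#2 medium and 719.5 ± 69.2 FPKM in shNC medium (SD, n = 3 each). FABP4 had a log2 fold change of -0.063 (95% interval -0.26 to 0.13, edgeR adjusted p = 0.944). FABP5 had one of -0.036 (95% interval -0.16 to 0.086, edgeR adjusted p = 0.950). Without shNC replicate 1 they were 0.071 and 0.032, and without shSPP1#2 replicate 2 the FABP4 value was 0.0056, so neither sign held over all libraries.

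FABP4 and FABP5 both lie on chromosome 8, FABP5 on the plus strand at 81280363 to 81284777 and FABP4 on the minus strand at 81478419 to 81483263. Over the 6 libraries, all 6 stood in the same order of log2 CPM for both genes. Pearson's r was 0.974 (two-sided exact permutation p = 0.00139, adjusted p = 0.0625 over the 45 pairs of members) and Spearman's rho was 1 (exact p = 0.00278, adjusted p = 0.125). Neither passes over the 45 pairs, but each exact p is the smallest that 6 libraries allow. A single pair, even in perfect order, therefore could not pass. Without the 2 libraries farthest from the FABP4 median r was 0.979, and on deviations from the group means it was 0.973. FABP5 exceeded FABP4 by a ratio of FPKM of 5.58, 6.42 and 6.37 in shSPP1#2 medium and 5.54, 6.13 and 6.37 in shNC medium. Mean ratios were 6.12 ± 0.474 in shSPP1#2 medium and 6.01 ± 0.429 in shNC medium (two-sided exact permutation p = 0.6, adjusted p = 0.6). GENCODE v29 names 14 pseudogenes of FABP5, and 0 of them appear by symbol among the deposited genes. The estimated counts of FABP5 are uncertain where reads match several copies. An antisense gene shares 94 of the 2077 exonic bases of FABP5 (4.53%). The muscle carrier FABP3 stayed at 0.34 to 0.87 FPKM in shSPP1#2 medium and 0.61 to 0.85 FPKM in shNC medium.

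PLIN2, the coat protein of lipid droplets in macrophages, measured 169, 185 and 147 FPKM in shSPP1#2 replicates 1, 2 and 3, and 154, 165 and 142.0 FPKM in the shNC replicates. Replicates 1 and 2 of shSPP1#2 medium were the highest of the 6, while its replicate 3 lay below all but 1 shNC library. Means were 167 ± 19.5 FPKM in shSPP1#2 medium and 154 ± 11.5 FPKM in shNC medium (SD, n = 3 each). The log2 fold change was 0.12 with a standard error of 0.071 (95% interval -0.035 to 0.26, edgeR adjusted p = 0.817). Leaving out shSPP1#2 replicate 2 gave 0.026 and leaving out shSPP1#2 replicate 3 gave 0.21. The more widely expressed droplet coat gene PLIN3 averaged 79.5 ± 1.24 FPKM in shSPP1#2 medium and 79.6 ± 2.55 FPKM in shNC medium (SD, n = 3 each). PLIN1, the coat protein of fat cells, did not exceed 0.02 FPKM. PLIN2 occupies positions 19108375 to 19149290 of chromosome 9, minus strand.

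CD9, a tetraspanin that organizes adhesion and signalling proteins in the membrane, was the member nearest to no difference. It measured 65.5, 72.5 and 69.3 FPKM in shSPP1#2 replicates 1, 2 and 3, and 70.6, 69.7 and 65.0 FPKM in the shNC replicates. The groups covered the same range. Means were 69.1 ± 3.47 FPKM in shSPP1#2 medium and 68.5 ± 3.05 FPKM in shNC medium (SD, n = 3 each), with a log2 fold change of 0.0071 (95% interval -0.10 to 0.12). CD9 occupies positions 6199715 to 6238271 of chromosome 12, plus strand.

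PPARG, the fatty-acid-sensing nuclear receptor, measured 14.4, 13.6 and 12.99 FPKM in shSPP1#2 replicates 1, 2 and 3, and 13.5, 11.9 and 11.4 FPKM in the shNC replicates. The 2 lowest values were shNC libraries, but shNC replicate 1 lay among the shSPP1#2 values. Means were 13.7 ± 0.680 FPKM in shSPP1#2 medium and 12.3 ± 1.11 FPKM in shNC medium (SD, n = 3 each). Its log2 fold change was 0.12 with a standard error of 0.076 (95% interval -0.042 to 0.28, edgeR adjusted p = 0.836), and 0.061 without shNC replicate 3. Its relative PPARD was several times more abundant, at 116 ± 2.15 FPKM in shSPP1#2 medium and 114 ± 2.49 FPKM in shNC medium (SD, n = 3 each). PPARG occupies positions 12287368 to 12434356 of chromosome 3, plus strand. LIPA and PPARG also kept a similar order of libraries (Pearson's r = 0.903, exact permutation p = 0.0139, adjusted p = 0.229; Spearman's rho = 0.943, exact p = 0.0167, adjusted p = 0.25; r = 0.927 without the 2 libraries farthest from the LIPA median), which does not pass over the 45 pairs. TREM2 and CD9 had the same rho of 0.943 (exact p = 0.0167, adjusted p = 0.25) with an r of 0.773 (exact permutation p = 0.0542, adjusted p = 0.609). GPNMB and LIPA had an r of 0.827 (exact permutation p = 0.0153, adjusted p = 0.229) and a rho of 0.714 (exact p = 0.136, adjusted p = 0.681), and r was 0.122 without the 2 libraries farthest from the GPNMB median. Neither pair passes.

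**Figure D3:**
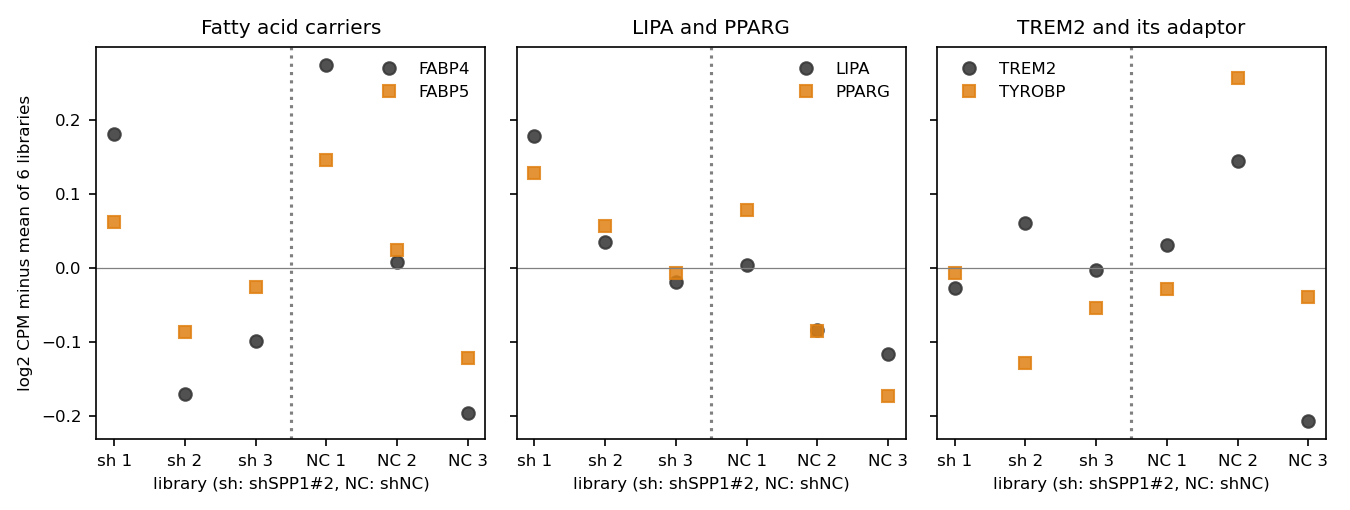
Log2 CPM of 3 pairs of genes in each library, as the difference from the mean of that gene, with shSPP1#2 libraries left of the dotted line and shNC libraries right of it. FABP4 and FABP5 keep 1 order over the 6 libraries, LIPA and PPARG nearly so, and TYROBP is highest in shNC replicate 2.

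Several members varied more within a group than most genes of like abundance. The within-group SD of log2 CPM was 0.212 for FABP4, larger than for 99.9% of 1593 genes within 0.5 of its mean log2 CPM. It was 0.155 for PLIN2 (above 99.5% of 569 such genes), 0.127 for TYROBP (98.1%), 0.109 for FABP5 (96.6%) and 0.131 for TREM2 (96.0%). Counting error alone gives an SD of 0.032 for FABP4 and 0.019 for PLIN2 at their depth. LPL had the smallest SD and the lowest share of steadier genes, at 0.064 (61.2%), followed in that share by PPARG at 0.102 (72.5%) and CD9 at 0.076 (75.5%). For GPNMB and LIPA it was 0.084 and 0.085, above 76.9% and 85.8% of genes of like abundance.

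**Figure D4:**
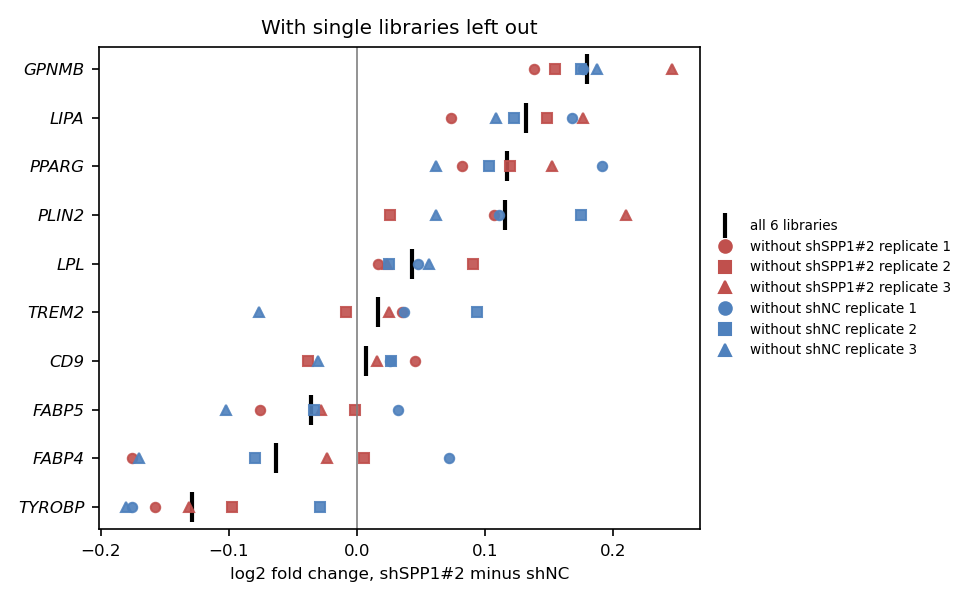
Log2 fold change of each gene with all 6 libraries (black bars) and with each library left out in turn (points, red for shSPP1#2 and blue for shNC libraries). GPNMB, LIPA, PPARG, PLIN2 and LPL stay above 0 and TYROBP below it, whereas TREM2, CD9, FABP4 and FABP5 change sign with single libraries.

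Other genes of these pathways were taken in 6 lists. With the low-count filter and no replicate block, edgeR called 0 genes in either direction in each list. The same fit called 0 of all 13555 tested genes, so these counts say nothing particular about the lists. Around TREM2, 20 of 22 ligand, adaptor and signalling genes were tested, with 11 higher and 9 lower and a median log2 fold change of 0.0049. The lipoprotein APOE, a TREM2 ligand, averaged 268 ± 15.7 FPKM in shSPP1#2 medium and 266 ± 3.50 FPKM in shNC medium (SD, n = 3 each; log2 fold change 0.0066). APOC1, a small apolipoprotein, averaged 344 ± 40.0 FPKM in shSPP1#2 medium and 364 ± 46.7 FPKM in shNC medium (SD, n = 3 each). The adaptor LAT2 measured -0.0090 and PLCG2, a phospholipase downstream of TREM2, 0.099 on the log2 fold change scale, and the sheddase ADAM10 0.067. TREM1, an inflammatory receptor that also signals through TYROBP, had the most negative value of the list at -0.25 (95% interval -0.49 to -0.018, edgeR adjusted p = 0.691).

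Lipoprotein lipase control and lipid uptake genes had 18 of 22 tested, 14 higher and 4 lower, with a median of 0.040. VLDLR, a receptor for triglyceride-rich lipoproteins, had the smallest p of all these lists. It measured 16.6, 15.4 and 15.8 FPKM in shSPP1#2 replicates 1, 2 and 3, and 13.9, 13.6 and 13.1 FPKM in the shNC replicates. The groups did not overlap. Its log2 fold change was 0.23 (95% interval 0.14 to 0.33, edgeR adjusted p = 0.142), which did not pass. It was called by DESeq2 (adjusted p = 0.00624), by edgeR without the low-count filter (adjusted p = 0.0246) and by edgeR with replicate number as a block (adjusted p = 0.00871). DESeq2 adjusted over 4265 genes only, fewer than the 13555 of edgeR with the filter. APOC2, the cofactor of lipoprotein lipase, measured -0.12 (-0.23 to -0.0017), and the acyl-CoA synthetases ACSL1 and ACSL4 0.095 and 0.058. APOC2, ACSL1 and ACSL4 passed in none of the fits run.

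Lipid droplet storage and lipolysis genes had 15 of 18 tested, 6 higher and 9 lower, with a median of -0.0068. CIDEB, a droplet protein best known from liver, measured 10.6, 9.83 and 8.78 FPKM in shSPP1#2 replicates 1, 2 and 3, and 12.8, 13.7 and 11.6 FPKM in the shNC replicates. The groups did not overlap, and its log2 fold change was -0.30 (-0.48 to -0.13, edgeR adjusted p = 0.483). DGAT2, which completes triglyceride synthesis, measured -0.12 (-0.24 to -0.0065), the monoglyceride lipase MGLL -0.094 and the lipolysis inhibitor G0S2 -0.020. Lysosomal lipid breakdown genes and MiT factors had 20 of 21 tested, 8 higher and 12 lower, with a median of -0.0058. The protease CTSL averaged 1766 ± 12.3 FPKM in shSPP1#2 medium and 1905 ± 104.9 FPKM in shNC medium (SD, n = 3 each), with a log2 fold change of -0.12 (edgeR adjusted p = 0.691). The glycolipid hydrolase GLA measured -0.11 (edgeR adjusted p = 0.673), the protease CTSB -0.045 and the saposin precursor PSAP 0.0043, all uncalled in edgeR. For CTSL and GLA the groups did not overlap, which held for 2 of the 20 tested genes of this list. Of all tested genes, 11.1% were non-overlapping in either direction.

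PPAR partners and targets had 18 of 20 tested, 11 higher and 7 lower, with a median of 0.017. The coactivator NCOA2 measured 0.20 (0.046 to 0.35, edgeR adjusted p = 0.618), the partner receptor RXRB -0.092 and PPARA, the fatty acid receptor best known from liver, -0.099. For NCOA2, RXRB and PPARA the groups did not overlap, beside 11.1% of all tested genes. The crosslinking enzyme TGM2 measured -0.054 and the transcription factor CEBPB 0.021. Among 15 tetraspanins and CD9 partners, all tested, 5 were higher and 10 lower, with a median of -0.026. CD63, a tetraspanin of late endosomes, averaged 746 ± 39.0 FPKM in shSPP1#2 medium and 793 ± 24.9 FPKM in shNC medium (SD, n = 3 each; log2 fold change -0.097, edgeR adjusted p = 0.764). CD81, a close relative of CD9, measured -0.0046, and 0.00064 when scaled by total counts. CD82 measured -0.090 and TSPAN3 -0.071.

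**Figure D5:**
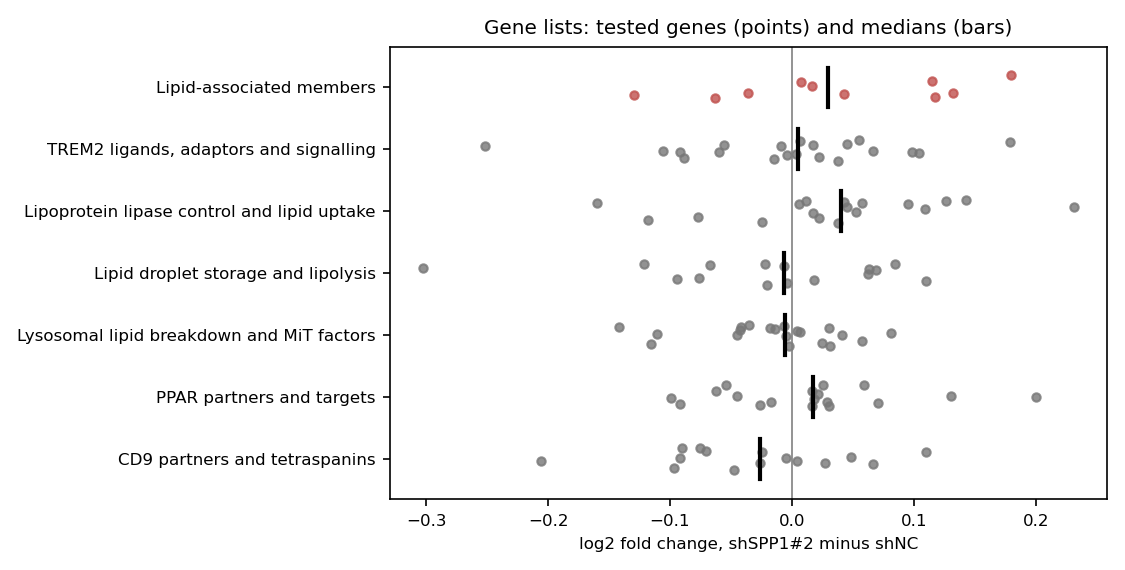
Log2 fold change, shSPP1#2 minus shNC, of the tested genes of each list (points; the 10 members in red) and the list median (black bars). List medians lie between -0.0261 and 0.0404, close to the median of -0.00030 over all tested genes.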

How the data were processed

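The authors deposited estimated counts and FPKM values per gene for 6 libraries (TRIzol, DNBSEQ platform, per the labels' protocols). Per the submitters' processing notes, which give no roles, HISAT2 2.0.4, Bowtie2 2.2.5, RSEM and GRCh38.p13 were used. The estimated counts are unscaled as deposited, and RSEM divides reads between similar genes. The deposited FPKM values are scaled by length and library total; 20 stray text lines were dropped. Strand use and the annotation release were not given in the sources used here. Counts were rounded, filtered with filterByExpr, scaled by TMM and tested with edgeR 4.0.16 (R 4.3.3), shSPP1#2 minus shNC, Benjamini-Hochberg adjusted over all 13555 tested genes, threshold 0.05. The test was checked on simulated counts. Alternatives used RLE or total-count scaling, other filters, a replicate block, DESeq2 1.42.0, limma 3.58.1 (voom; log2(FPKM + 0.1) and log2(FPKM + 1)), a threshold of 0.01 and single libraries left out. Members and lists were chosen with earlier results of these data known. Named list genes are the 3 most abundant and the 3 of smallest p per list; 1 gene that this rule names is not reported here. Plots used matplotlib 3.10.9. Promoter sequences come from RefSeq (7 of 10 members listed) and coordinates from GENCODE v29.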

Additional observations from a re-analysis of the deposited data

How the results depend on the processing

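No alternative called a member, though DESeq2 adjusted only 8 of them. Over 15 alternatives for each of 10 members, 143 of 150 log2 fold changes kept their sign. The values ran from -0.18 to 0.246. The smallest adjusted p was 0.105, for LIPA in edgeR with the replicate block, against 0.633 without it. In that blocked fit the adjusted p was 0.173 for GPNMB, against 0.517 without the block, and 0.216 for PLIN2, against 0.817. The 7 sign changes came with single libraries left out, in TREM2 (-0.0763 to 0.0933), CD9 (-0.0385 to 0.0452), FABP4 (-0.176 to 0.0713) and FABP5 (-0.102 to 0.0319). The median over members was lowest without shNC replicate 3 (0.0129) and highest without shNC replicate 2 (0.0601). All genes called numbered 18 without a low-count filter, 13 with DESeq2, 1 with limma-voom, 1 with limma on log2(FPKM + 0.1) and 1 to 10 with single libraries left out, against 0 in edgeR with the filter and no block. With single libraries left out, 0 members and 0 pathway genes were called. VLDLR was the 1 pathway gene called without a filter (adjusted p = 0.0246), with DESeq2 (0.00624) and with the replicate block (0.00871). With replicate number as a block 59 genes were called, 0 of them members. At an unadjusted p below 0.05 edgeR gave 1461 genes with that block, against 928 without it. The labels number the replicates and do not say whether same-numbered libraries were paired. Deviations of same-numbered libraries from their group means correlated at 0.0733, 0.096 and 0.0481. Each of the 6 libraries correlated best with its own number, a hint from the data and not the design. Whether the libraries were paired was not tested. With single libraries left out the TYROBP to TREM2 difference ran from -0.56 to -0.24 and the FABP5 to FABP4 difference from -0.128 to 0.382. Sign changes with single libraries left out also occurred for APOC1 (-0.182 to 0.000239), LAT2 (-0.0358 to 0.0104), APOE (-0.0377 to 0.0531), G0S2 (-0.0573 to 0.0293), PLIN3 (-0.0377 to 0.0109), PSAP (-0.0266 to 0.0461) and CD81 (-0.0445 to 0.0292, and 0.00064 with total-count scaling). The cause was not tested. With 3 libraries per group, differences within the intervals given above were not resolved.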
